A study of Mus musculus with 21 samples.

Results

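The oocyte linker histone gene H1f8 and the nucleoplasmin genes Npm1, Npm2 and Npm3 were followed through 21 RNA-seq libraries of mouse oocytes and granulosa cells. The 4 genes were taken by name from the 55335 gene identifiers of each library, H1f8 by its identifier because the files still write it H1foo. They were picked with results from these libraries already known, so their levels and the contrast of oocytes with granulosa cells are given as a description, without a test. All libraries came from mouse ovaries. The labels do not name the strain, and the study describes ICR mice. As the study describes its mice, Young mice were 6 to 8 weeks old and Aged mice 18 months old. The other 3 groups were 18-month-old mice whose ovaries had received human umbilical cord mesenchymal stem cells under the capsule, either unsorted cells (Aged + Unsorted) or cells sorted for high or low surface LRP1 (Aged + LRP1high and Aged + LRP1low). Libraries of these 3 groups are recorded as collected 3 weeks after transplantation. No vehicle-injected group is among the libraries used here, so the procedure and the cells cannot be told apart. Oocytes gave 3 Young, 2 Aged, 2 Aged + Unsorted, 3 Aged + LRP1high and 2 Aged + LRP1low libraries. Granulosa cells gave 1 Young, 2 Aged, 1 Aged + Unsorted, 3 Aged + LRP1high and 2 Aged + LRP1low libraries. The labels do not say how many animals stand behind a library, so p-values measure the spread between libraries only.

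Linker histones bind the nucleosome where DNA enters and leaves it and help to fold chromatin. H1f8 encodes the linker histone of the growing and mature oocyte, which takes the place of the somatic linker histones there and stays into the first divisions of the embryo. Nucleoplasmins are acidic chaperones that hold histones and hand them over. Npm2 is the oocyte member, a maternal effect gene whose product organises chromatin and nucleoli in the oocyte and early embryo. Npm1 is the abundant nucleolar member found in nearly all cells, with roles in ribosome assembly, and Npm3 is a small nucleolar member that binds Npm1.

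On GRCm38, H1f8 (ENSMUSG00000042279) lies on chromosome 6 at 115944938-115950236 on the plus strand, and Npm1 (ENSMUSG00000057113) on chromosome 11 at 33152287-33163206 on the minus strand. Npm2 (ENSMUSG00000047911) lies on chromosome 14 at 70647302-70659244 and Npm3 (ENSMUSG00000056209) on chromosome 19 at 45747734-45749591, both on the minus strand. Npm2 overlaps Xpo7, and the start of Npm3 overlaps Gm15491, a gene on the opposite strand. All 4 are annotated as protein-coding. Acidic runs were read from the GENCODE transcripts of the 3 nucleoplasmins. In the lines that follow, capitals mark the longest unbroken run of codons for aspartate or glutamate in each coding sequence, and lower case marks the codons on either side.

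Npm1 codons 151-187: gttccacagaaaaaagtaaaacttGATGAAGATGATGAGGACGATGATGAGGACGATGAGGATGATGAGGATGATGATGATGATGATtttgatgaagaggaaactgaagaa
Npm2 codons 117-150: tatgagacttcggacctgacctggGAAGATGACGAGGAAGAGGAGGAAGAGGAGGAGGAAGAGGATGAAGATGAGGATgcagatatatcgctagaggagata
Npm3 codons 47-67: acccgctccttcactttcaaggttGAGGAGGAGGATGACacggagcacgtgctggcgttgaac

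The run was 21 codons long in Npm1, 18 in Npm2 and 5 in Npm3. It lay at codons 159-179 in Npm1, 125-142 in Npm2 and 55-59 in Npm3, so the runs need not be equivalent regions. Acidic codons made up 22.6% of the 292 codons of Npm1, 20.3% of the 207 of Npm2 and 16.6% of the 175 of Npm3. The 304 codons of H1f8 had the opposite balance, with 6.25% acidic and 20.7% basic codons. H1f8 and Npm2 shared no word of 50 bases with another gene. Npm1 shared 40.9% of its words with 11 other genes, nearly all unnamed gene models, and Npm3 shared 36.1% with Npm3-ps1 and Gm15491. Reads from these words could have been assigned to more than 1 gene, so the levels of Npm1 and Npm3 are less certain than those of H1f8 and Npm2.

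RefSeq promoter sequences on GRCm38.p6 were matched for 2 of the 4 genes, H1f8 and Npm3. No sequence was matched for Npm1 and Npm2, so the 2 shown are those at hand and not a chosen contrast. Each line is the 250 bases before the RefSeq start, with chr6:115944681-115944930 (plus strand) for H1f8 and chr19:45749566-45749815 (minus strand) for Npm3. Capitals mark TGATTG, which differs by a single base from TAATTG, a form of the element bound by the oocyte homeobox factor Nobox. They also mark CANNTG, the E-box bound by Figla and other factors.

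H1f8 promoter: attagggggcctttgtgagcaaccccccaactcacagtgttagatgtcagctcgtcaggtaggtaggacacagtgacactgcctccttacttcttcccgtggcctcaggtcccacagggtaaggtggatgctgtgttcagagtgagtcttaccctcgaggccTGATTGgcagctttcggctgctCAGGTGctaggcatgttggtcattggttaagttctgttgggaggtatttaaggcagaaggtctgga
Npm3 promoter: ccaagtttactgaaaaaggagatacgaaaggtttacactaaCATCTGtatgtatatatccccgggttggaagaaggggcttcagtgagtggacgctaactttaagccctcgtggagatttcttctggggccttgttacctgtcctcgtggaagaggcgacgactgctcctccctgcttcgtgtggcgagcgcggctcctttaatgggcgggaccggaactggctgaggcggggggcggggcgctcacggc

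Both strands were searched. The H1f8 window held TGATTG 1 time, 1 E-box and 2 CCAAT boxes, and 1 of these boxes overlapped TGATTG on the opposite strand. The Npm3 window held 1 E-box. The letters TGATTG were present in 12.7% of 32851 promoters of this length, those of the CCAAT box in 33.8% and those of the E-box in 66.2%. The form of the Nobox element, TAATTG, was present in 7.17% of promoters and in neither window. The E-box form CACGTG was present in 6.02% of promoters and likewise in neither window. These matches describe letters and not bound sites.

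Levels are given as FPKM, fragments scaled to gene length and library size, as the authors deposited them, which allows genes to be compared. Depth was 0.278 to 3.40 gigabases of aligned sequence in oocyte and 0.335 to 1.49 in granulosa libraries. The libraries differed widely in 9 oocyte markers, which include the egg coat genes Zp1, Zp2 and Zp3 and the growth factors Gdf9 and Bmp15. Their summed FPKM was 1227 to 11832 in 8 of the 12 oocyte libraries. It was 9.24 in Young replicate 1, 103 in Aged replicate 1, and 45.7 and 159 in the 2 Aged + LRP1low libraries. These markers were lower there by a wide margin, but were above 0 except for Zp2 in Young replicate 1 and Bmp15 in Aged + LRP1low replicate 2. In bulk RNA, fewer oocytes and less RNA per oocyte cannot be told apart. The granulosa Aged + Unsorted library had summed oocyte markers of 9497 and summed granulosa markers of 22.9, against its label. Its values ranked the genes most like the oocyte Aged + Unsorted replicate 2 library (Spearman's rho = 0.931 across genes), and its rho with the other granulosa libraries was 0.147 to 0.569.

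H1f8 ranked between 6th and 79th of all genes by FPKM in 7 of the 8 oocyte libraries rich in oocyte markers, and 299th in the other, Young replicate 2. It stood at an FPKM of 2.18, 113 and 3437 in the 3 Young libraries. In the 2 Aged libraries it was at 49.5 and 1962. These groups overlapped, and each of them spanned more than an order of magnitude. In the 2 Aged + Unsorted libraries it was at 1870.05 and 2789. In the 3 Aged + LRP1high libraries it was at 2719, 1489.9 and 575. Every library of both groups was above the 2 lowest Young libraries and the lowest Aged library. In the 2 Aged + LRP1low libraries it was at 7.35 and 7.22, ranks 8336 and 6393, below every other oocyte library but Young replicate 1.

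**Figure D1:**
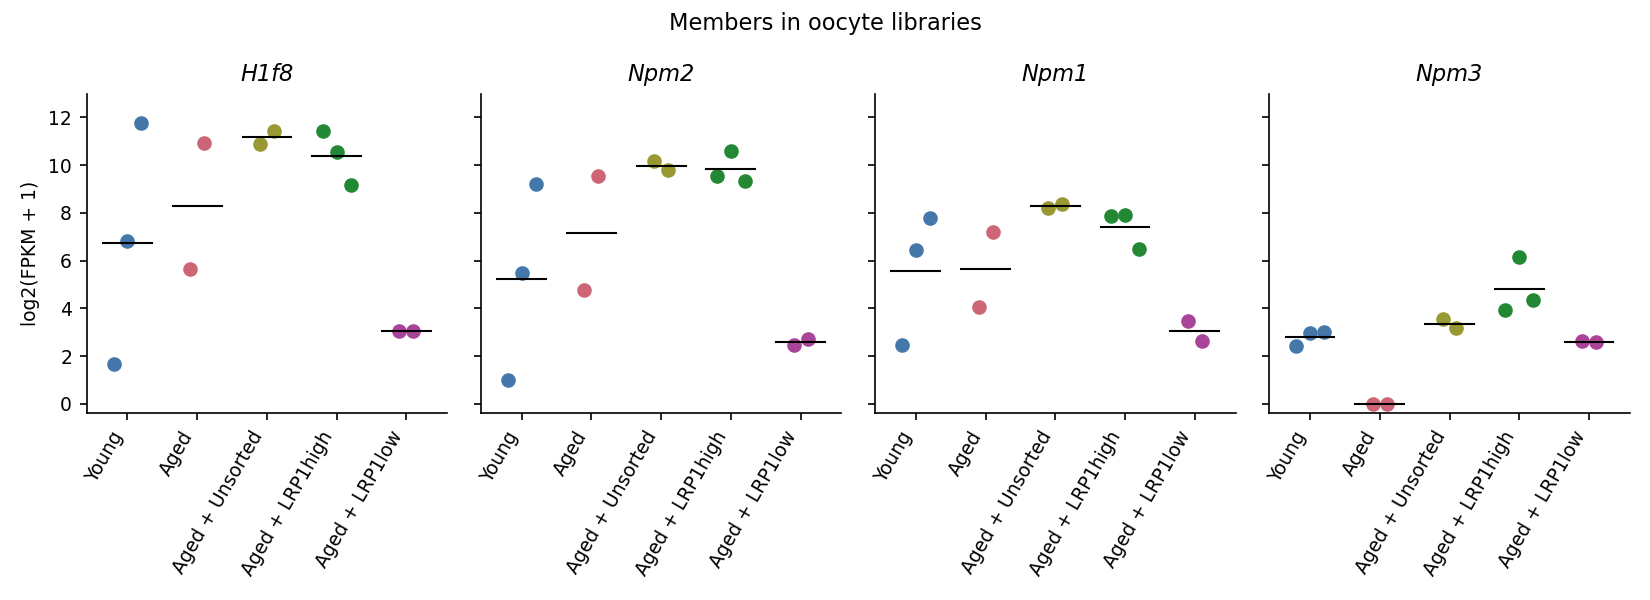
Levels of H1f8, Npm2, Npm1 and Npm3 in the 12 oocyte libraries by group. The vertical axis is log2(FPKM + 1), each point is a library and the line is the mean of its group on this scale. H1f8, Npm2 and Npm1 were low in both Aged + LRP1low libraries and spread widely in Young and Aged, and Npm3 was listed at 0 in both Aged libraries.

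Npm2, the oocyte nucleoplasmin, was low in the same libraries as H1f8, but the order among the high libraries differed. Young replicate 3 was highest for H1f8 and Aged + LRP1high replicate 2 for Npm2. Its FPKM was 0.992, 44.2 and 596 in Young and 26.2 and 752 in Aged. It was 1152 and 879 in Aged + Unsorted, and 749.8, 1560.3 and 653 in Aged + LRP1high. For these levels, no share over all genes was counted. In Aged + LRP1low it was 4.44 and 5.51, below both Aged libraries. The ratio of Npm2 to H1f8 was 0.173 to 1.14 in the 12 oocyte libraries, and it was above 1 in Aged + LRP1high replicates 2 and 3, at 1.05 and 1.14. In Aged + LRP1high replicate 1 it was 0.276, so the group did not separate from the others by this ratio.

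Npm1, the nucleolar member, varied over a narrower range, 4.53 to 334, a 73.7-fold span against 1575-fold for H1f8 and 1573-fold for Npm2. Its FPKM was 4.53, 86.6 and 219 in Young and 15.9 and 144 in Aged. The 2 Aged + Unsorted libraries were at 293 and 334, and no share over all genes was counted for these levels. Aged + LRP1high libraries were at 229, 237 and 88.4, which overlapped with Young and Aged. Aged + LRP1low libraries were at 10.2 and 5.17, and only Young replicate 1 was lower. The 11 genes that share words with Npm1 summed to 28.9 and 27.4 FPKM in these 2 libraries, more than Npm1 itself, and to 23.1 to 123 in the 8 libraries rich in oocyte markers, less than Npm1 in each.

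Npm3 was the least abundant of the 4 genes in 10 of the 12 oocyte libraries and did not follow the others. It was at 4.42, 6.86 and 7.03 in Young, which were close together while H1f8 spread widely in the same libraries. It was listed at 0 in both Aged libraries. In Aged + Unsorted it was at 10.6 and 7.91, in Aged + LRP1low at 5.22 and 4.94, and in Aged + LRP1high at 14.4, 69.9 and 19.4. The values in Aged + LRP1low were at ranks 16781 and 12836. The 2 genes that share words with Npm3 summed to 6.62 and 7.86 FPKM in these 2 libraries, more than Npm3 itself. In the other oocyte libraries with Npm3 above 0 they summed to at most 6.83, less than Npm3 in each. For the Npm3 levels of the 3 Aged + LRP1high libraries, no share over all genes was counted. At the depth of the Aged libraries, an FPKM of 4.42, the lowest elsewhere, corresponds to a mean coverage of 2.56 and 3.50 reads. Housekeeping genes were also listed at 0 in these libraries, Rplp0 and Hsp90ab1 in replicate 1 and Gapdh in replicate 2. Gapdh was at most 13.6 in any oocyte library, and was also at 0 in Aged + LRP1high replicate 3, where Npm3 was at 19.4. The 2 Aged + LRP1low libraries listed Npm3 above 0, at depths of 0.515 and 0.278 gigabases against 0.578 and 0.791 in Aged. They listed 3372 and 12114 genes of any kind at 0, against 25324 and 43096 in Aged. What the zeros of Npm3 reflect was not tested. Of 28004 genes tested, 44 (0.157%) shared the pattern of 0 in both Aged libraries and a value above 0 in the 10 others. Npm3 is one of the genes in the study's aging list, which was chosen on these libraries, so its values against Aged are given as a description.

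Levels of the 4 genes can be ordered within a library because FPKM is per length. The order H1f8, Npm2, Npm1, Npm3 from high to low held in 7 of 12 oocyte libraries, and Npm2 was above H1f8 in 2 others. The exceptions in which Npm1 was above Npm2 were Young replicates 1 and 2 and Aged + LRP1low replicate 1. H1f8 made up 96.5% to 99.4% of the FPKM of 11 linker histone genes in the 8 libraries rich in oocyte markers. It made up 8.85% in Young replicate 1, 49.7% in Aged replicate 1, and 12.4% and 19.6% in Aged + LRP1low. The other 10 linker histones summed to 3.20 to 67.1 FPKM in oocyte libraries, so the low shares went with low H1f8.

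**Figure D2:**
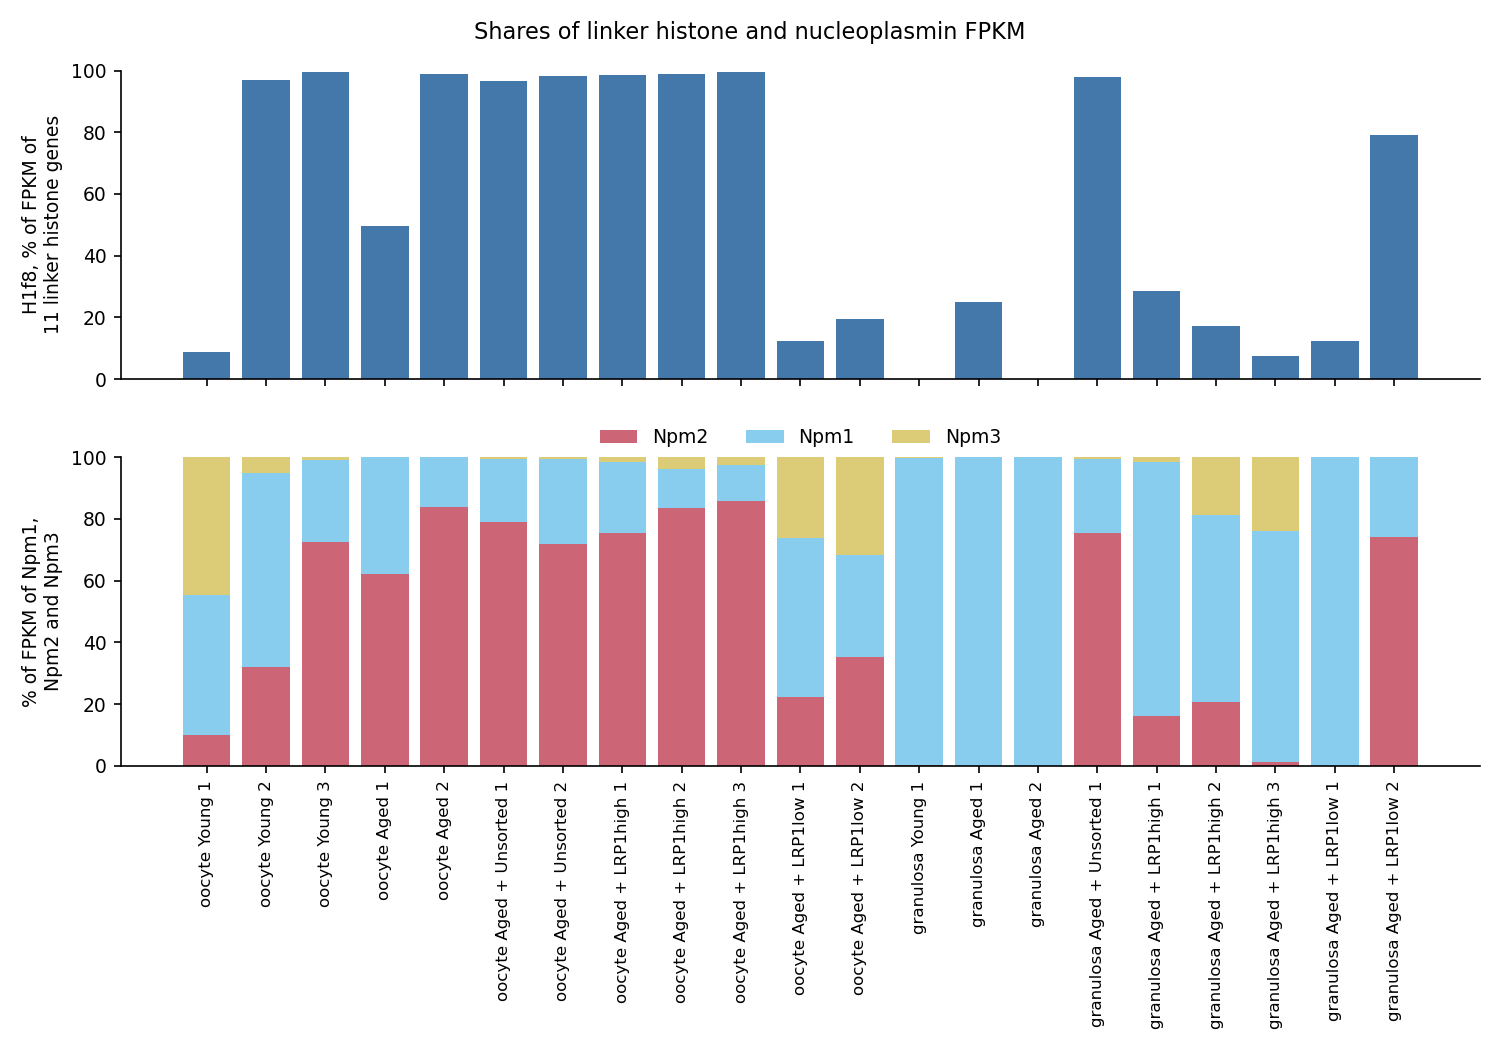
Upper panel: H1f8 as a percentage of the summed FPKM of 11 linker histone genes in each of the 21 libraries. Lower panel: Npm1, Npm2 and Npm3 as percentages of their summed FPKM. H1f8 was above 96% in 8 oocyte libraries and in the granulosa Aged + Unsorted library, and Npm2 was the largest nucleoplasmin in 7 of those 8, the exception being Young replicate 2.

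The nucleoplasmins divided in a like way. Npm2 made up 72.0% to 85.8% of the FPKM of the 3 nucleoplasmins in the oocyte libraries rich in oocyte markers, apart from Young replicate 2, where it made up 32.1% and Npm1 62.9%. Young replicate 2 had 3135 genes at an FPKM of at least 1, the fewest of the oocyte libraries. In Aged + LRP1low Npm2 made up 22.4% and 35.3%. Npm3 reached 26.3% and 31.6% there and 44.5% in Young replicate 1, and was at most 4.99% in the other 9 libraries.

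Across the 12 oocyte libraries, H1f8, Npm1 and Npm2 went together on the log2(FPKM + 1) scale. Pearson's r was 0.979 for H1f8 with Npm2, 0.973 for H1f8 with Npm1 and 0.957 for Npm1 with Npm2. With the summed oocyte markers, r was 0.968 for H1f8, 0.960 for Npm1 and 0.964 for Npm2, so these 3 genes were high where other oocyte genes were high. For Npm3, r was 0.361 with the markers and 0.293 to 0.394 with the other members. These values are descriptions over libraries that share groups and differ in depth. As a percentage of the summed markers, H1f8 was 4.55% to 55.0%, a 12.1-fold span in place of 1575-fold. Npm2 was 3.47% to 25.4% of the markers, a 7.30-fold span, and Npm1 2.03% to 49.1%, a 24.2-fold span.

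**Figure D3:**
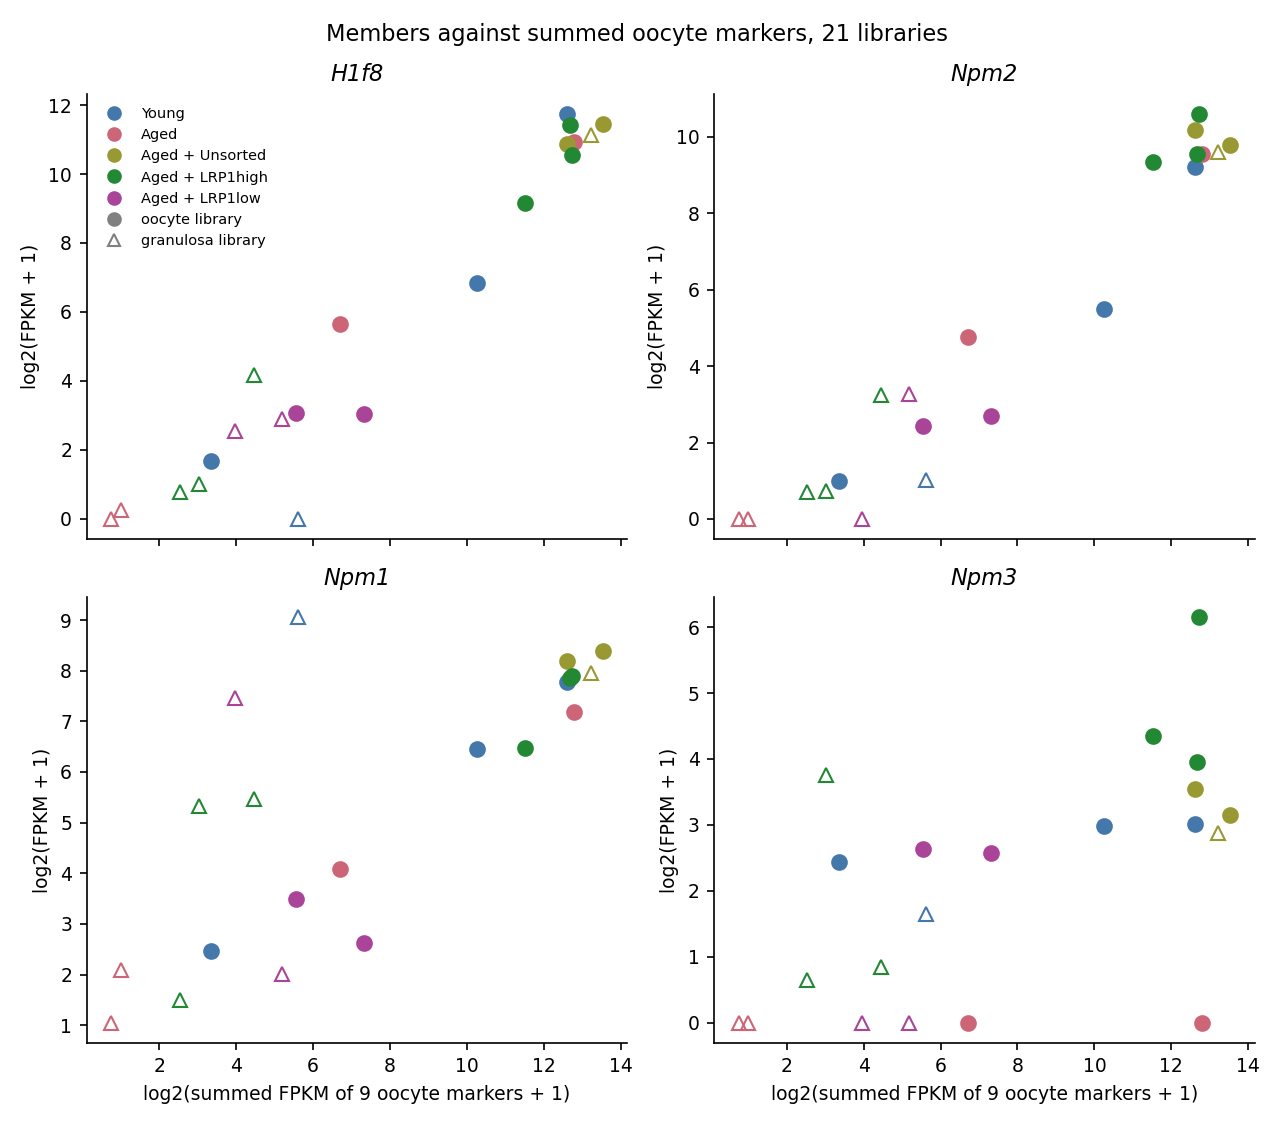
Each of the 4 genes against the summed FPKM of 9 oocyte markers in 21 libraries, both as log2(FPKM + 1). Colours give the groups, filled circles are oocyte and open triangles granulosa libraries. H1f8 and Npm2 lay along 1 band, Npm1 was high in several granulosa libraries with few oocyte markers, and Npm3 showed no such band.

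Among 4066 genes that averaged an FPKM of 10 or more in oocytes, the 5 whose log2 pattern over the 12 libraries was most like that of H1f8 were Pttg1 (r = 0.997), the securin that restrains chromosome separation, Fbxw14, E330021D16Rik, Tcl1 and C86187 (r = 0.990). Pttg1 ranged from 2.12 to 5165 FPKM. For Npm2 they were Tubb4b (r = 0.991), a tubulin, Prdx2, Smc4, a condensin subunit, Bcl2l10 and Oog4 (r = 0.987). For Npm1 they were Nlrp4a (r = 0.994), Gm13084, Bmp15, Fbxw14 and Gm813 (r = 0.986). The 5 nearest genes of Npm3 were less like it, AA465934 (r = 0.869), 3110045C21Rik, Pld6, Rpl17-ps4 and Rab12 (r = 0.837), and each of them was listed at 0 in at least 1 oocyte library.

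Differences between groups were tested with limma on log2(FPKM + 1) over all 28004 genes that passed a mean FPKM of 1 in oocytes. All 4 members passed in both cell types. The call threshold was a fold over 1.5 with an adjusted p under 0.05. The comparison of Aged with Young asks what age changes in the oocyte, and 0.0964% of genes were called. H1f8 differed by 1.55 (log2 Aged over Young, SE 2.32, adjusted p = 0.744), Npm2 by 1.92 (SE 1.95, adjusted p = 0.634) and Npm1 by 0.06 (SE 1.39, adjusted p = 0.999). None of these was called, and the 95% interval for H1f8 ran from -3.56 to 6.66. The median over all genes was 0.94. Without Young replicate 1, the library with the fewest oocyte markers, the differences became -0.99, -0.20 and -1.49, and without Aged replicate 2 they became -1.09, -0.47 and -1.49. Their direction therefore rested on single libraries.

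The comparisons of transplanted with Aged oocytes share the 2 Aged libraries. For Aged + Unsorted, H1f8 was higher by 2.86 (SE 2.55, adjusted p = 0.515), Npm2 by 2.82 (SE 2.14, adjusted p = 0.462) and Npm1 by 2.67 (SE 1.52, adjusted p = 0.436). None of them passed the test, and 0% of genes were called, with 476 higher and 1971 lower at an unadjusted p under 0.05. For Aged + LRP1high, H1f8 was higher by 2.07 (adjusted p = 0.600), Npm2 by 2.68 (adjusted p = 0.414) and Npm1 by 1.78 (adjusted p = 0.442), again short of the threshold, where 0.771% of genes were called and 0.0179% were called higher. Npm3 was past the threshold there, 1 of the 4 members. This was known when the gene was picked, so the count is a description only. The median over all genes was -0.86 and -1.05 in these 2 comparisons. These differences rested on Aged replicate 1. Without it, those of Aged + Unsorted became 0.22 for H1f8, 0.42 for Npm2 and 1.12 for Npm1. Those of Aged + LRP1high became -0.57, 0.28 and 0.23. Summed oocyte markers were 103 in that library and 7089 in the other Aged library. Relative to these markers, without a test, Aged + Unsorted differed from Aged by -0.46 for H1f8, -0.49 for Npm2 and -0.62 for Npm1. Aged + LRP1high differed by -0.48, 0.14 and -0.74.

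For Aged + LRP1low against Aged, H1f8 was lower (log2 difference -5.25, SE 2.55, adjusted p = 0.398), as was Npm2 (log2 difference -4.59, SE 2.14, adjusted p = 0.370) and Npm1 (log2 difference -2.57, SE 1.52, adjusted p = 0.513). None of these 3 was called, while 3.17% of genes were. In a fit chosen after seeing the data, which left out Young replicate 1 and Aged replicate 1, all 3 were called lower. H1f8 differed by -7.89 (adjusted p = 0.0170), Npm2 by -6.98 (adjusted p = 0.00821) and Npm1 by -4.12 (adjusted p = 0.00800). In that fit 39.6% of all genes were called, and 5.08% of all genes were called lower, and Aged held a single library that was assumed to vary like the other groups. Without Aged replicate 2 in place of these, the differences were smaller, -2.61 for H1f8, -2.19 for Npm2 and -1.02 for Npm1, and none was called. Relative to the oocyte markers, without a test, they were -2.09 and -1.50 for H1f8 and Npm2, and Npm1 turned to 0.61. In Aged + LRP1low these 3 genes were at 4.44 to 10.2 FPKM. The medians of the granulosa, luteal, stromal and immune marker lists were 2.57 to 8.47 there.

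**Figure D4:**
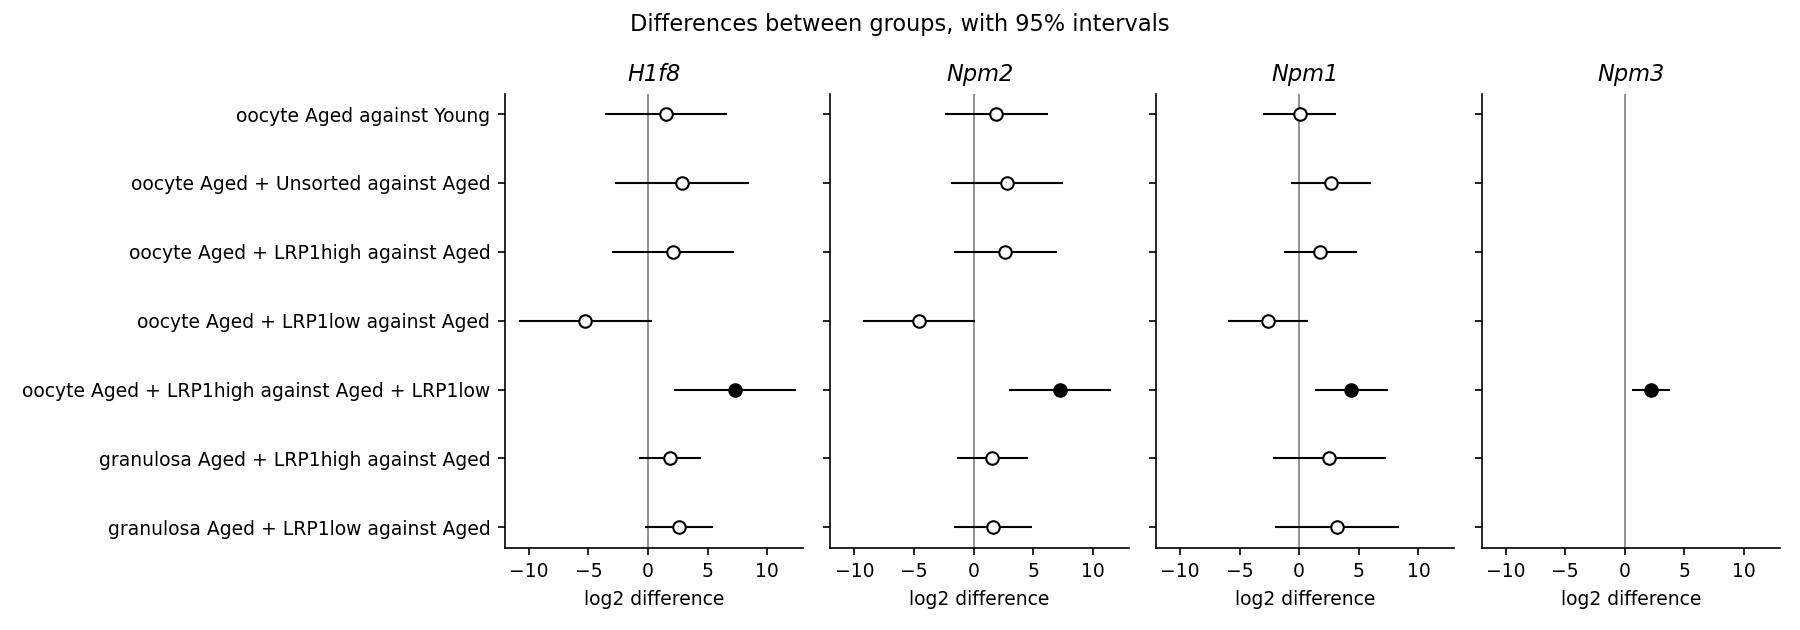
Log2 differences of the 4 genes in 7 comparisons (first named group minus second), with 95% intervals from limma. Filled points were called, and comparisons of Npm3 with Aged are not drawn because Npm3 was listed at 0 there. The 4 filled points are those of Aged + LRP1high against Aged + LRP1low in oocytes.

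Between oocytes of the 2 sorted transplants, all 4 genes were higher in Aged + LRP1high than in Aged + LRP1low. H1f8 was higher by 7.32 (SE 2.32, adjusted p = 0.0438), with the lowest LRP1high library at 575 and the highest LRP1low library at 7.35. Npm2 was higher by 7.26 (SE 1.95, adjusted p = 0.0314), Npm1 by 4.35 (SE 1.39, adjusted p = 0.0445) and Npm3 by 2.21 (SE 0.72, adjusted p = 0.0459). Every LRP1high library was above every LRP1low library for each of them. Against this, 26.0% of all genes were called in this comparison, 1.21% as higher, and 6.82% had every LRP1high library above every LRP1low library, while the median over all genes was -1.89. Summed oocyte markers were 2932 to 6807 in LRP1high and 45.7 and 159 in LRP1low. The LRP1low libraries also had 47920 and 38934 genes at an FPKM of at least 1, against 4525 to 11026 in LRP1high, and were less deep. Young replicate 1 and Aged replicate 1, also low in oocyte markers, had 19690 and 27970 such genes. The part of these values in the result was not tested.

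Relative to the oocyte markers, on the log2 scale and without a test, H1f8 and Npm2 remained higher in LRP1high, by 1.61 and 1.63. Npm1 was lower (log2 difference -1.36) and Npm3 too (log2 difference -3.49). In the LRP1low libraries the 4 members were at 4.44 to 10.2 FPKM. The medians of the granulosa, luteal, stromal and immune marker lists were 2.57 to 8.47 there. These scaled differences thus rest on member values near those of marker genes of other cells. The calls were close to the threshold. No member was called with a pseudocount of 0.1, nor without any 1 of the 3 LRP1high or 2 LRP1low libraries, and 1 member was called without Young replicate 2, Aged + Unsorted replicate 1 or Aged + Unsorted replicate 2. All 4 were called when Young replicate 1 and Aged replicate 1 were left out, with adjusted p-values of 0.00113 to 0.0266.

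Genes that work beside the members were counted in the same comparison, from lists drawn up with earlier results known. Of 21 other histone chaperones, all tested, 4 were called higher in Aged + LRP1high than in Aged + LRP1low oocytes and 1 lower, with a median difference of 1.05. Over all genes, 1.21% were called higher and 24.8% lower, with a median of -1.89. The 4 were Rbbp7 (6.21, adjusted p = 0.0304), Supt16 (5.59, adjusted p = 0.0406), a subunit of the FACT complex, Asf1a (5.40, adjusted p = 0.0217), which carries H3-H4, and Nap1l1 (4.04, adjusted p = 0.0316), which carries H2A-H2B. Of 13 nucleolar genes, 3 were called higher and none lower, with a median of 0.80. They were Rrn3 (6.04, adjusted p = 0.0323), an initiation factor of RNA polymerase I, Dkc1 (5.77, adjusted p = 0.0346), the pseudouridine synthase, and Nolc1 (3.63, adjusted p = 0.0419). Each of these 7 genes was below 10 FPKM in both LRP1low libraries and above 31 in all 3 LRP1high libraries.

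None of the other linker histones was called higher in this comparison. Of 10, 7 were tested, 6 had a negative difference and the median was -1.27, close to the -1.89 of all genes. H1f6, the linker histone of the testis, was the 1 that was called, lower (log2 difference -2.66, adjusted p = 0.0417), at 0 to 0.389 FPKM in LRP1high and 4.15 to 9.06 in LRP1low. Of 9 oocyte markers 2 were called higher, Bmp15 by 7.97 and Oosp1 by 7.60. Markers of other cells were called lower, 3 of 8 tested for granulosa cells, 2 of 5 luteal, 3 of 5 stromal, 2 of 6 immune and 0 of 2 blood genes, where 24.8% of all genes were called lower. The summed levels of the 7 immune markers were 0.0194 to 1.20 FPKM in LRP1high and 27.8 and 55.5 in LRP1low, and those of the 6 stromal markers 0.289 to 1.25 and 33.4 to 38.8. Few genes of any kind were silent in LRP1low, with 3372 and 12114 listed at 0 against 24012 to 39680 in LRP1high. The medians of the granulosa, luteal, stromal and immune lists were 2.57 to 8.47 FPKM in LRP1low. What these levels reflect was not tested. No gene of the linker histone, chaperone or nucleolar lists was called in the 6 other comparisons.

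In granulosa cells, Npm1 was the highest of the 4 genes in 7 of 9 libraries. It was at 529.7 FPKM in Young, above every oocyte library, and at 3.26 and 1.07 in Aged. It was at 43.3, 1.82 and 39.0 in Aged + LRP1high and at 175 and 3.02 in Aged + LRP1low. Both Aged libraries were also low in granulosa markers, which summed to 1.21 and 1.70 there and to 1799 in Young. They were as low in 8 housekeeping genes, which summed to 1.48 and 3.65 there and to 6757 in Young. The part of this in the levels of the members was not tested. Without the Aged + Unsorted library, H1f8 was at most 17.1 FPKM, Npm2 at most 8.66 and Npm3 at most 12.5. H1f8 was listed at 0 in Young and in Aged replicate 2, and at 0.187 in Aged replicate 1. It was at 17.1, 0.701 and 1.04 in Aged + LRP1high and at 4.89 and 6.40 in Aged + LRP1low.

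**Figure D5:**
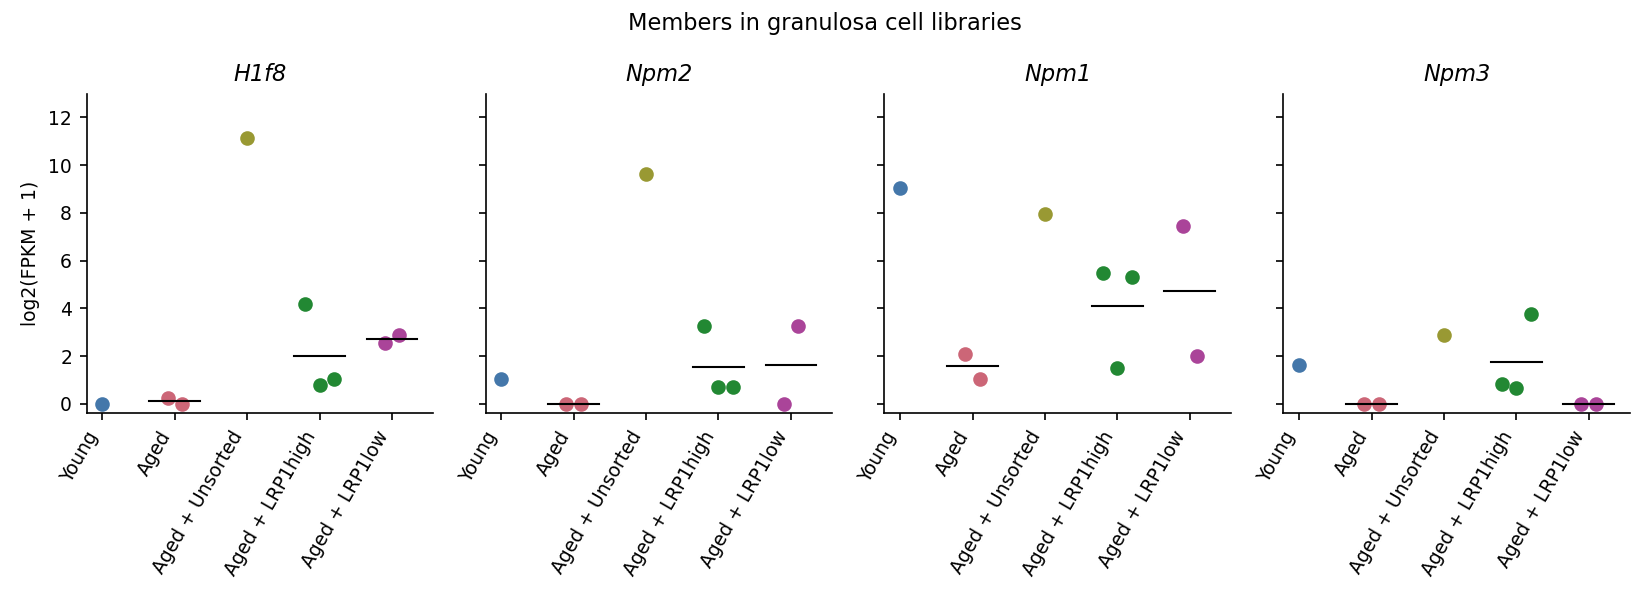
Levels of the 4 genes in the 9 granulosa libraries by group, as log2(FPKM + 1). Each point is a library and the line is the mean of groups with more than 1 library. The single Aged + Unsorted library was at 2243 FPKM for H1f8 and 784 for Npm2, far above the other 8 libraries, while Npm1 was highest in Young.

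Npm2 was at 1.03 in Young, at 0.0047 and 0 in Aged, at 8.49, 0.627 and 0.652 in Aged + LRP1high and at 0 and 8.66 in Aged + LRP1low. Npm3 was at 2.13 in Young and was listed at 0 in both Aged and both Aged + LRP1low libraries. It was at 0.798, 0.563 and 12.5 in Aged + LRP1high, so the replicates of this group differed among themselves by more than an order of magnitude. Summed oocyte markers in the 8 libraries apart from Aged + Unsorted were 0.681 to 48.1. In the Aged + Unsorted library, Npm1 was at 247 and Npm3 at 6.38, and the ratio of Npm2 to H1f8 was 0.349, inside the range of the oocyte libraries.

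Of the 4 members, 0 were called in either granulosa comparison, in which 0% of 13002 genes were called. Against Aged, Aged + LRP1high differed by 1.87 for H1f8 (SE 1.07, adjusted p = 0.458), 1.55 for Npm2 (SE 1.21, adjusted p = 0.483) and 2.53 for Npm1 (SE 1.93, adjusted p = 0.479). Aged + LRP1low differed by 2.60 for H1f8 (SE 1.17, adjusted p = 0.904), 1.63 for Npm2 (SE 1.33, adjusted p = 0.924) and 3.16 for Npm1 (SE 2.12, adjusted p = 0.904). No member had an unadjusted p under 0.05 in either comparison. The median over all genes was 0.89 and 0.31. The 95% intervals were wide, such as -2.04 to 8.37 for Npm1 in Aged + LRP1low.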

How the data were processed

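Bulk RNA-seq of 12 oocyte and 9 granulosa libraries was analysed, grouped by their labels. The authors aligned reads with HISAT2 2.2.1 and quantified genes with StringTie 1.3.3b. They deposited coverage (mean read depth), FPKM and TPM for each gene. The submitters' processing notes name mm9, but 54577 of 55335 identifiers carry the version and coordinates of the GENCODE M21 annotation on GRCm38, which was used here. The labels name a stranded kit and the methods Smart-seq2, so whether counting used strand is not settled, and overlapping genes may share reads. Depth in gigabases is the median ratio of deposited coverage to FPKM over 21693 single-exon genes. Identifiers listed more than once were summed.

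Values were log2(FPKM + 1), a scale that understates changes of low genes. Genes that averaged 1 FPKM or more in a cell type (28004 in oocytes, 13002 in granulosa cells) were fitted in R 4.3.3 by limma 3.58.1. Each cell type had its own model over all its groups, and p-values had Benjamini-Hochberg adjustment. The model was tested on simulated data. Calls needed a fold over 1.5 and an adjusted p under 0.05, after the study's criteria. The Young and Aged + Unsorted granulosa groups hold 1 library each and entered no comparison. The members and lists were chosen with earlier results of these data known. Named genes are the members, up to 4 called genes per list and comparison, and the 5 genes most correlated with each member, and the 2 called oocyte markers were named after their values were seen. Alternatives were another pseudocount, no filter, TPM, quantile normalization, a trended robust fit, a replicate block, scaling to oocyte markers and leaving out each library.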

Additional observations from a re-analysis of the deposited data

Results flagged for a closer look

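The direction of the difference between Aged + LRP1low and Aged differed between cell types for H1f8, with -5.25 in oocytes and 2.60 in granulosa cells on the log2 scale. The 2 LRP1low oocyte libraries were both below the mean of Aged and the 2 LRP1low granulosa libraries both above it. Npm1 moved likewise, with -2.57 in oocytes and 3.16 in granulosa cells. These differences between cell types were not tested, and none of the 4 passed the test within its own cell type. In the 2 granulosa Aged libraries, 8 housekeeping genes summed to only 1.48 and 3.65 FPKM.

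Libraries in groups of 1 entered no comparison. The granulosa Aged + Unsorted library had summed oocyte markers of 9497, against its label. There the members were far above the Aged libraries, with H1f8 at 2243 FPKM, Npm1 at 247, Npm2 at 784 and Npm3 at 6.38. In these Aged libraries the housekeeping genes summed to only 1.48 and 3.65 FPKM. In the granulosa Young library Npm1 was at 529.7, Npm2 at 1.03 and Npm3 at 2.13, also above both Aged libraries.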

How the results depend on the processing

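Of 7 counts of members called, those of both granulosa comparisons were 0 under every alternative. For Aged against Young the count was 1 with TPM and at an unadjusted p (0 to 1 when single libraries were left out, 1 without Aged replicate 2). For Aged + Unsorted against Aged it was 1 without a filter, with TPM and at an unadjusted p (0 to 1, 1 without Aged replicate 2). For Aged + LRP1high against Aged, where Npm3 alone passed, it was 0 with a pseudocount of 0.1, quantile normalization and the trended robust fit (0 to 1, with 0 for 9 of 12 libraries). For Aged + LRP1low against Aged it was 1 without a filter, with TPM and at an unadjusted p, 0 when any single library was left out, and 3 with Young replicate 1 and Aged replicate 1 left out. For Aged + LRP1high against Aged + LRP1low it was 2 with quantile normalization and the trended robust fit, 0 with a pseudocount of 0.1, and 0 to 4 when single libraries were left out. Over single libraries left out, Aged against Young ran from -1.09 to 4.19 for H1f8, from -1.49 to 1.61 for Npm1 and from -0.47 to 4.32 for Npm2, and was -0.39 for Npm1 with quantile normalization. H1f8 in Aged + LRP1high against Aged ran from -0.57 to 4.71, and was also -0.57 with Young replicate 1 and Aged replicate 1 left out. Npm2 in granulosa Aged + LRP1low against Aged ran from -0.0034 to 3.27, the lowest without Aged + LRP1low replicate 2. Scaled to the oocyte markers, Npm1 and Npm3 turned to -1.36 and -3.49 in Aged + LRP1high against Aged + LRP1low, and Npm1 to -0.93 in Aged against Young and 0.61 in Aged + LRP1low against Aged. H1f8, Npm2 and Npm1 turned to -0.46, -0.49 and -0.62 in Aged + Unsorted against Aged, and H1f8 and Npm1 to -0.48 and -0.74 in Aged + LRP1high against Aged. Npm3 could not be scaled against Aged. The cause of these changes was not tested. With a replicate block, 0 members were called in Aged + LRP1high against Aged and 0 in Aged + LRP1high against Aged + LRP1low (adjusted p-values of 0.0840 to 0.0933), and the block changed no other count. The labels do not say whether numbers pair libraries. In oocytes the deviations of same-numbered libraries correlated at -0.44 to 0.44, over 0.1 in 4 of 21 pairs. In groups of 2 libraries the deviations of both replicates mirror each other, so these correlations cannot decide whether numbers pair libraries. Shallow libraries and zeros in housekeeping genes limit what a 0 means.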
